A study of Mus musculus with 6 samples.

Results

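The proteasome is the protease of the cytosol and nucleus that degrades proteins tagged with ubiquitin. Its barrel-shaped 20S core is built of outer alpha rings and inner beta rings, and 3 kinds of beta subunit, Psmb5, Psmb6 and Psmb7, cut the substrate. A 19S regulatory particle caps the core: a base of ATPases unfolds substrates and a lid removes ubiquitin. Chaperones help to assemble the core and the base. Cells exposed to interferon replace the catalytic subunits by Psmb8, Psmb9 and Psmb10, which form the immunoproteasome. Proteasome genes are known to respond to the transcription factors Nrf1, encoded by Nfe2l1, and Nrf2, encoded by Nfe2l2, in several cell types, and Psmb5 and the maturation factor Pomp are often named among the targets of Nrf2.

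The genes described here were chosen by symbol: Psma to Psmg followed by a digit, or Pomp, on probe sets of the array annotated with 1 gene. There were 50 such genes among 18193, and the brightest probe set stood for each. They comprise 14 core subunits, 2 alternative core subunits of other tissues, 3 immunoproteasome subunits, 6 ATPases, 3 further base subunits, 8 lid subunits, 4 activators or inhibitors and 8 assembly factors. Psmc3ip, a factor of meiotic recombination, and Psme3ip1, a protein that binds the activator PA28 gamma, matched by symbol but are not proteasome subunits. Psme2, the beta subunit of the PA28 activator, was outside the rule because its probe set is also annotated to Psme2b.

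The animals were 6 littermates, all female and 2.5 days old, of mixed FVB/N and C57BL/6 background, and the RNA of the whole back skin of each went onto 1 array. In 3 mice, labelled K5cre-caNrf2 (tg/tg), a constitutively active Nrf2 was combined with Cre recombinase driven by the promoter of keratin 5, a gene of basal keratinocytes in epidermis and hair follicle. The 3 controls are labelled K5cre-wt (tg/wt). The sample descriptions call both groups weak without saying what the word refers to. Whole skin also holds dermis, fat, muscle, vessels and leukocytes, in which the keratin 5 promoter is not active, and in such a mixture fewer cells of a type and less RNA per cell cannot be told apart. The comparison asks whether proteasome transcripts differ in skin with an always active Nrf2 in keratinocytes.

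The arrays had medians between 80.9 and 82.1 intensity units. The upper quartile was 330.7 to 333.3 on the control arrays, 332.5 on caNrf2 array 1, and 344.5 and 342 on caNrf2 arrays 2 and 3. The basal keratins Krt5 and Krt14 stood at mean log2 intensities of 13.48 and 13.57. Nfe2l2, the gene of Nrf2, measured 9.36, 9.40 and 9.42 in control and 9.91, 9.75 and 9.75 in caNrf2 skin; whether its probe set also reads the transgene is not given in the labels. All 8 reference targets of Nrf2 rose, among them the quinone reductase Nqo1 by 12.2-fold (adjusted p = 2.70e-07, limma with Benjamini-Hochberg adjustment over all 18193 genes, as for every adjusted p here). These targets were listed with their rise already known.

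Promoter sequences were examined for the binding motif of Nrf1 and Nrf2, since these factors are known to act on proteasome genes through it. RefSeq promoter windows of 300 bases (250 before and 50 after the start, build GRCm38.p6) were at hand for 42 of the 50 genes, in 45 windows. The 8 genes without a window, Psmd7 among them, could not be searched. The core of the antioxidant response element, TGACNNNGC, was searched on both strands and found in 6 of these windows, 13.3%, against 12.4% of all 32851 windows. A share so close to that of all promoters does not set the proteasome genes apart. The matches are shown with the bases around them, capitals marking the motif, each read on the strand on which the motif has these letters.

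Psmb5 (chr14:54618023-54618052, minus strand): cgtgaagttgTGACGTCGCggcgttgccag
Psmb6 (chr11:70525338-70525367, plus strand): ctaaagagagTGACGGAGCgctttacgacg
Psmc6 (chr14:45329586-45329615, minus strand): gagcaatgccTGACTTAGCtactggctggc
Psmd12 (chr11:107479278-107479299, minus strand): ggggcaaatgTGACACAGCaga
Psmd9 (chr5:123228149-123228178, plus strand): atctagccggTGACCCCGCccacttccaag
Psme4 (chr11:30771757-30771786, minus strand): gctcttctggTGACGCTGCagccgcagcgc

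The match of Psmb5, the chymotrypsin-like catalytic subunit, begins 47 bases before the start, and that of Psmb6, the caspase-like subunit, 9 bases before it. The 6 genes are a core pair (Psmb5, Psmb6), an ATPase (Psmc6), a lid subunit (Psmd12), a base chaperone (Psmd9) and a nuclear activator (Psme4). Their log2 differences between caNrf2 and control skin were 0.05, 0.04, 0.12, 0.13, -0.06 and 0.11 in this order, none of which passed the threshold. The core of the interferon-stimulated response element is GAAA and GAAA with any 2 bases between them. On either strand, it occurred in 5 of the 45 windows, 11.1%, against 3.44% of all windows, a difference that was not tested. These 5 windows were those of Psmb3, Psmd4, Psmd9, Psme1 and Psmg4. No match of one motif overlapped a match of the other. A match is a string of letters and not a measured binding site.

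The bases before the start are given whole for the gene with the largest difference, the base chaperone Psmd5, and for Psmb5, a member often cited as a target of Nrf2. Capitals again mark the antioxidant response element core. The upstream stretch of Psmd5 holds neither motif, and that of Psmb5 holds the match already shown.

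Psmd5 (GRCm38.p6, chr2:34870963-34871212, minus strand): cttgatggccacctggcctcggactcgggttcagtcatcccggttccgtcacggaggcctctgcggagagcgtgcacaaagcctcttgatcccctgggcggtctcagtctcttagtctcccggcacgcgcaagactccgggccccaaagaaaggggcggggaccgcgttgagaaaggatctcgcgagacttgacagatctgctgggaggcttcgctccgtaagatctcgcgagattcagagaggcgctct
Psmb5 (GRCm38.p6, chr14:54617996-54618245, minus strand): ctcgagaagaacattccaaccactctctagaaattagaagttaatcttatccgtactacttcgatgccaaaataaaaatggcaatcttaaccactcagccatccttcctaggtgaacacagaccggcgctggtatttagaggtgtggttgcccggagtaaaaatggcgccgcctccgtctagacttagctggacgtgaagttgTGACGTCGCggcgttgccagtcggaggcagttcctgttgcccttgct

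Proteasome transcripts differed little between caNrf2 and control skin. None of the 50 genes passed the threshold (limma, adjusted p under 0.05), while 0.374% of all genes did, 0.346% as higher and 0.0275% as lower in caNrf2 skin. At an unadjusted p under 0.05, 7 were higher, 14% of the 50, and none was lower; over all genes 3.26% were higher and 4.82% lower. These 7 were the assembly chaperone Psmd5, the lid subunits Psmd7 and Psmd11, the activator Psme3, the ATPase Psmc1, the base scaffold Psmd1 and the alpha subunit Psma3. Their number changed when single arrays were left out: it was 2 without control array 2, 3 without caNrf2 array 3 and 4 without control array 1. It was 5 without control array 3, 6 without caNrf2 array 1 and 8 without caNrf2 array 2. The share of all genes at that p is not given for these fits. In them 41 to 89 of all genes passed the adjusted threshold, against 68 in the main fit. The median log2 difference of the 50 was 0.06, against -0.01 over all genes, and 39 lay above 0, as did 47.2% of all genes. This median was 0.031 without caNrf2 array 2, 0.037 without caNrf2 array 3 and 0.091 without caNrf2 array 1. In the same order the median of all genes was -0.018, -0.0068 and 0.0036.

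The sizes were bounded more tightly than the calls alone show. The largest difference was 1.27-fold, for Psmd5, and 10 genes reached 1.1-fold. The upper end of the 95% interval stayed below 1.5-fold for all 50 genes and below 1.2-fold for 31. The lower end stayed above 0.813 of the control level for all 50. The intervals hold for each gene singly and for whole skin, since keratinocytes were not measured alone. In 13 of the 50 genes, 26%, all caNrf2 arrays exceeded all control arrays, and in none did they all lie below; over all genes 6.23% and 6.88% did so.

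**Figure D1:**
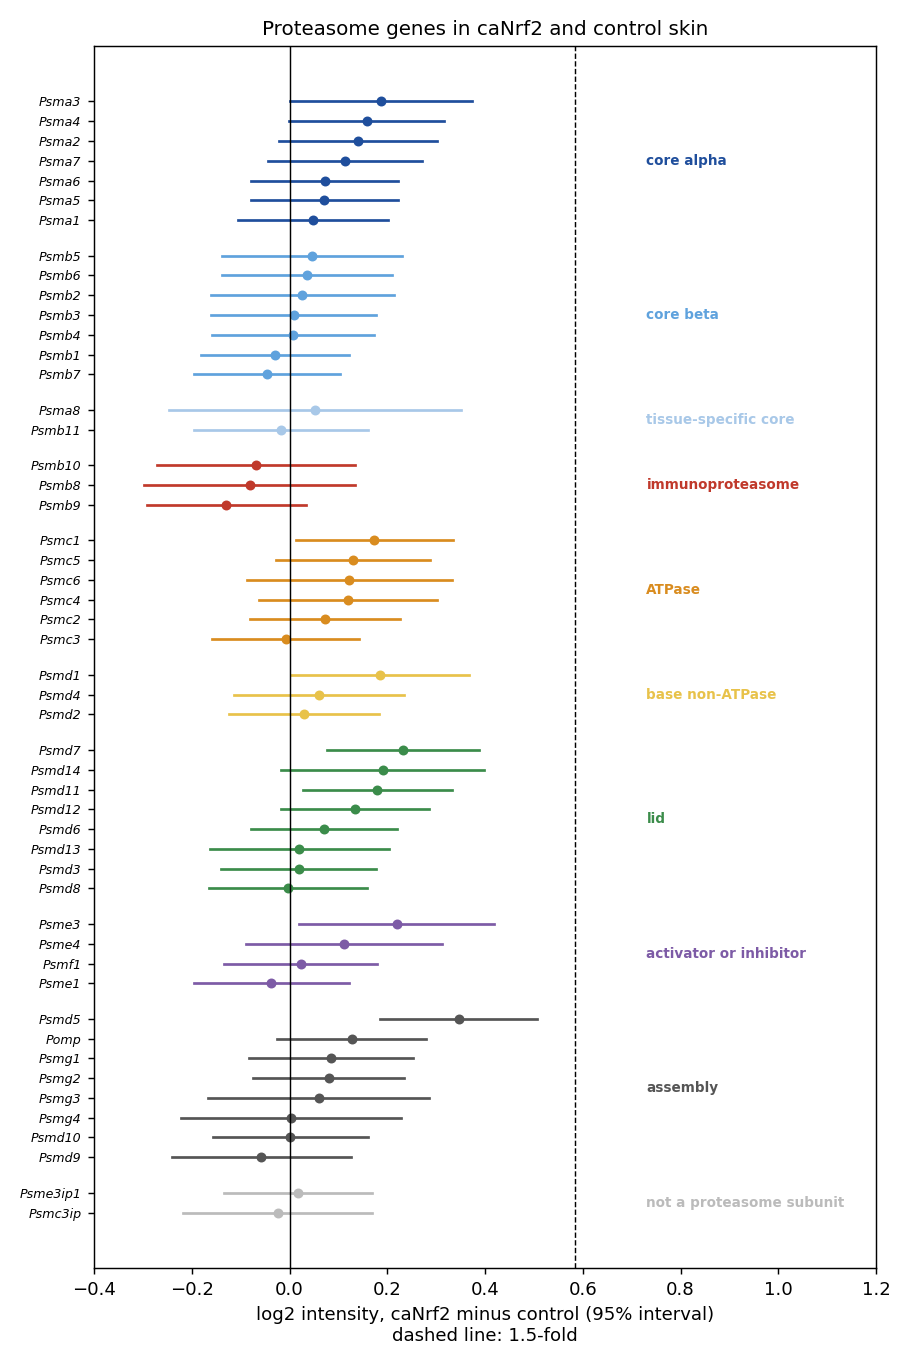
Difference in log2 intensity between caNrf2 and control skin (x axis) for each of the 50 genes (rows, grouped by role), from 3 arrays per group. Points are estimates and lines 95% intervals from limma; all intervals end left of the dashed line at 1.5-fold, Psmd5 lies farthest right at 0.35, and the 3 immunoproteasome genes lie left of 0.

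The alpha subunits form the outer rings of the core, where the gate to the chamber lies. Each of the 7 had a difference above 0, between 0.05 and 0.19 on the log2 scale with a median of 0.11, and none passed the threshold (smallest adjusted p = 0.618). In 5 of the 7 the caNrf2 arrays lay above the controls without overlap, as they did in 6.23% of all genes and in 9.76% of genes at a mean log2 intensity of at least 10, where all 7 lie. The division of the core into its alpha and beta rings was made after the values had been seen.

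Psma3 had the largest difference among the core genes. It measured 12.08, 12.26 and 12.30 on control arrays 1 to 3 and 12.36, 12.34 and 12.50 on caNrf2 arrays 1 to 3 (log2 intensity). The groups did not overlap, control 1 lying apart below and caNrf2 3 above. The difference was 0.19 ± 0.08 (SE), 1.14-fold (adjusted p = 0.618), and a second, dimmer Psma3 probe set differed by 0.18.

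Psma4 measured 11.61, 11.58 and 11.64 in control and 11.71, 11.74 and 11.85 in caNrf2 skin, and Psma2 measured 11.91, 11.91 and 11.93 against 11.97, 12.05 and 12.15. In both the controls lay close together and caNrf2 3 was the highest array. Their differences were 0.16 ± 0.07 (adjusted p = 0.621) and 0.14 ± 0.07 (SE; adjusted p = 0.680). Psma7 differed by 0.11 and Psma6 by 0.07, both without overlap, and Psma5 by 0.07 with overlap. The probe set of Psma6 is of a type that can bind related transcripts. A second Psma6 probe set, not of that type and at a level of 11.81, also differed by 0.07 without overlap.

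Psma1 was the alpha subunit that differed least. It measured 11.45, 11.49 and 11.49 in control and 11.46, 11.54 and 11.57 in caNrf2 skin. The groups overlapped, since caNrf2 1 lay within the control range. The difference of 0.05 ± 0.07 (SE) is 1.03-fold, with a 95% interval of 0.930 to 1.15 (adjusted p = 0.906).

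The beta subunits line the chamber, and those with a catalytic threonine cut the substrate. The 7 constitutive beta genes had a median difference of 0.01 and lay between -0.05 and 0.05, and in every one the groups overlapped. On caNrf2 array 1 all 7 lay below their control mean, with a median of -0.09, while 6 of the 7 alpha genes lay above theirs on the same array. On caNrf2 arrays 2 and 3 the beta genes had medians of 0.10 and 0.05 above the control mean, and the alpha genes 0.11 and 0.15. Without caNrf2 array 1 the beta median was 0.07 and the alpha median 0.13. The difference between the rings was not tested.

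Psmb5, the chymotrypsin-like subunit and the main target of proteasome inhibitors, measured 11.22, 11.14 and 11.20 in control skin and 11.08, 11.33 and 11.29 in caNrf2 skin. The caNrf2 arrays enclosed the controls, array 1 below and arrays 2 and 3 above them. Its difference was 0.05 ± 0.08 (SE), 1.03-fold, with a 95% interval of 0.908 to 1.17 (adjusted p = 0.931). Without caNrf2 array 2 the sign turned, to -0.0025.

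Psmb6, with caspase-like activity, measured 11.62, 11.55 and 11.57 in control and 11.50, 11.72 and 11.63 in caNrf2 skin, the same pattern with caNrf2 1 lowest. It differed by 0.04 ± 0.08 (adjusted p = 0.949). Psmb7, with trypsin-like activity, measured 12.09, 12.14 and 12.09 in control and 12.04, 12.04 and 12.09 in caNrf2 skin. Here caNrf2 1 and 2 lay below all controls and caNrf2 3 among them, and the difference was -0.05 ± 0.07 (adjusted p = 0.909). The structural subunits Psmb1, Psmb2, Psmb3 and Psmb4 lay between -0.03 and 0.03.

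**Figure D2:**
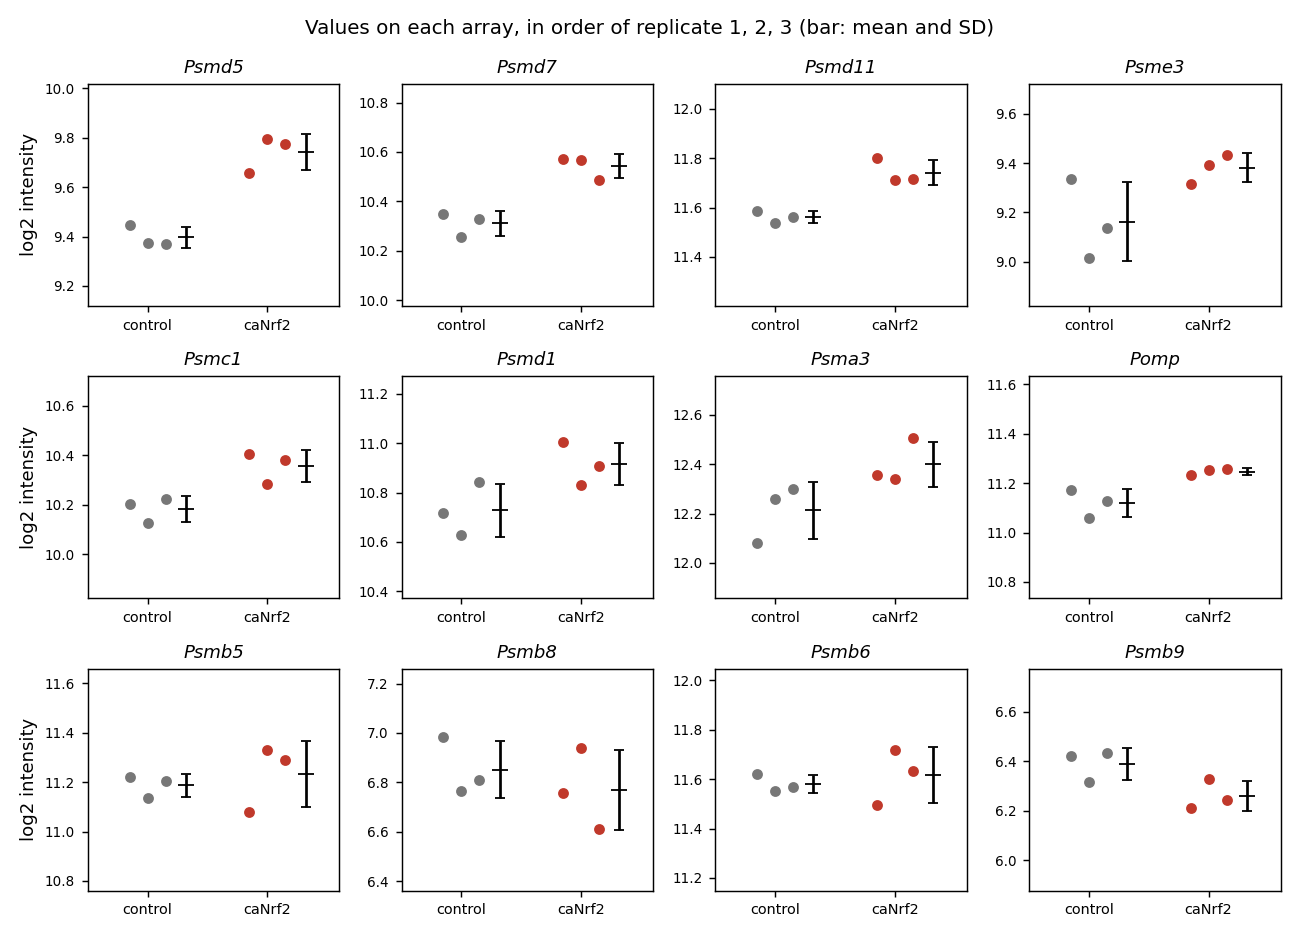
Log2 intensity (y axis, all panels spanning ranges of equal size) of 12 proteasome genes on the 3 control and 3 caNrf2 arrays, drawn in order of replicate, with mean and SD beside them. The groups are apart for Psmd5, Psmd7, Psmd11, Psmc1, Psma3 and Pomp, and overlap for Psme3, Psmd1, Psmb5, Psmb8, Psmb6 and Psmb9.

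The 3 immunoproteasome subunits replace the constitutive catalytic subunits in cells exposed to interferon and in many leukocytes. All 3 had differences below 0, from -0.13 to -0.07, with overlap of the groups in each and no call (smallest adjusted p = 0.705). Psmb9, which takes the place of Psmb6, measured 6.42, 6.32 and 6.43 in control and 6.21, 6.33 and 6.24 in caNrf2 skin. Only caNrf2 2 reached the control range, and the difference was -0.13 ± 0.07 (SE; adjusted p = 0.705).

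Psmb8, the counterpart of Psmb5, measured 6.98, 6.76 and 6.81 in control and 6.76, 6.94 and 6.61 in caNrf2 skin, a difference of -0.08 ± 0.10 (adjusted p = 0.882). Psmb10, the counterpart of Psmb7, measured 8.09, 7.94 and 8.004 in control and 7.86, 8.12 and 7.84 in caNrf2 skin, a difference of -0.07 ± 0.09 (adjusted p = 0.893). For both, caNrf2 2 lay among the controls or above them and caNrf2 3 was the lowest array. Without caNrf2 array 3 the difference was -0.0032 for Psmb8 and -0.020 for Psmb10, and without control array 1 it was -0.017 and -0.029. The median of the 3 genes, -0.08, was -0.020 and -0.029 without these arrays, -0.16 without caNrf2 array 2 and -0.13 without control array 2. The levels of these 3 genes fall in a range, 6 to 8 on the log2 scale, in which all 4217 genes had a median difference of -0.02 and 43.1% lay above 0.

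Each immunoproteasome subunit was also set against the constitutive subunit it replaces, within the same array. The Psmb9 value minus the Psmb6 value was -5.19 ± 0.05 in control and -5.36 ± 0.06 in caNrf2 skin (log2, mean ± SD, n = 3), a difference of -0.17 without overlap of the groups (exact two-sided permutation p = 0.1, the smallest that 3 against 3 arrays allow; 0.3 adjusted over the 3 pairs). For Psmb8 and Psmb5 it was -0.13 (exact permutation p = 0.5; adjusted 0.75) and for Psmb10 and Psmb7 -0.02 (exact permutation p = 0.9; adjusted 0.9). Without caNrf2 array 3 these values were -0.020 for Psmb8 and Psmb5 and 0.044 for Psmb10 and Psmb7; without control array 1 they were -0.079 and 0.025. After a further quantile normalisation the values were -0.12 for Psmb9 and Psmb6, -0.10 for Psmb8 and Psmb5 and -0.03 for Psmb10 and Psmb7. Each pair sets a dim gene against a bright one. All genes at levels of 6 to 8 had a median difference of -0.02, and those at or above 10 a median of 0.02. The part of level in the pair values was not tested. With 3 arrays a group no pair can reach 0.05.

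Genes that act with the immunoproteasome in antigen presentation or respond to interferon showed no call either. Of 15 measured, 4 lay above 0, with a median of -0.05. The peptide transporter Tap1 differed by 0.03 and the class I heavy chain H2-K1 by -0.11; the interferon-induced GTPase Gbp2 differed by -0.14 and the interferon regulatory factor Irf8 by 0.16. Psme1, the alpha subunit of the interferon-inducible PA28 activator, differed by -0.04 ± 0.07 (adjusted p = 0.939), and the probe set shared by Psme2 and Psme2b by -0.02. Of 12 leukocyte markers, among them Ptprc and Cd3e, 3 lay above 0, with a median of -0.03 and no call, and their summed intensity was 4919 to 5148 units on the control arrays and 4574 to 5292 on the caNrf2 arrays. Their part in the immunoproteasome values was not tested.

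The 6 ATPases form the ring of the base that unfolds substrates. Of these, 5 lay above 0 and none passed the threshold, with a median of 0.12, which was 0.073 without caNrf2 array 3 and 0.057 with the mean of all probe sets of each gene. Psmc1 measured 10.20, 10.12 and 10.22 in control and 10.41, 10.28 and 10.38 in caNrf2 skin. All caNrf2 arrays exceeded all controls, by a difference of 0.17 ± 0.07 (SE), 1.13-fold (adjusted p = 0.582); a second probe set close to background, at a mean level of 3.27, differed by -0.16. Psmc5 measured 11.52, 11.38 and 11.43 in control and 11.61, 11.53 and 11.58 in caNrf2 skin, likewise without overlap, and differed by 0.13 (adjusted p = 0.691). Psmc4 and Psmc6 differed by 0.12 each and Psmc2 by 0.07, with overlap, and Psmc3 by -0.01. The probe set of Psmc2 is, like that of Psma6, of a type that can bind related transcripts. A second bright Psmc2 probe set, not of that type, differed by 0.08.

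Of the other base subunits, the scaffold Psmd1 measured 10.72, 10.63 and 10.84 in control and 11.003, 10.83 and 10.91 in caNrf2 skin. Control 3 and caNrf2 2 overlapped, and the difference was 0.19 ± 0.08 (adjusted p = 0.610). The second scaffold, Psmd2, differed by 0.03 and the ubiquitin receptor Psmd4 by 0.06.

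The lid holds the deubiquitinase Psmd14 and the subunits around it. Of its 8 genes 7 lay above 0, 4 of them without overlap, with a median of 0.10. All 8 have a mean log2 intensity of at least 10, and at that level 60.6% of all genes lay above 0 and 9.76% were higher without overlap. Psmd7, the partner of Psmd14, measured 10.35, 10.26 and 10.33 in control and 10.57, 10.57 and 10.49 in caNrf2 skin. The groups were well apart, and the difference was 0.23 ± 0.07 (SE), 1.17-fold, with a 95% interval of 1.05 to 1.31 (adjusted p = 0.375). A second Psmd7 probe set differed by 0.24.

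In the order of measured genes along chromosome 8, Psmd7 is the third gene from Nqo1, the target of Nrf2 that rose 12.2-fold. The 2 genes between them, Nob1 and Wwp2, differed by 0.10 and -0.03. On the far side of Psmd7 the nearest gene, Zfhx3, differed by -0.11.

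Psmd11, a lid subunit that contacts the core, measured 11.59, 11.54 and 11.56 in control and 11.80, 11.71 and 11.72 in caNrf2 skin. The controls lay close together and all caNrf2 arrays above them. The difference was 0.18 ± 0.07 (adjusted p = 0.533). It has 8 probe sets, of which the 4 brightest differed by 0.18, 0.14, 0.18 and 0.03 and the 4 dimmer ones, at levels of 3.31 to 6.10, by -0.20 to 0.05.

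Psmd14, the deubiquitinase itself, measured 11.43, 11.58 and 11.70 in control and 11.71, 11.66 and 11.91 in caNrf2 skin. Control 3 lay above caNrf2 2, and the controls were spread as widely as the caNrf2 arrays. Its difference was 0.19 ± 0.09 (SE; adjusted p = 0.653). Psmd12 measured 10.70, 10.74 and 10.78 against 10.89, 10.84 and 10.89, a difference of 0.13 without overlap (adjusted p = 0.665). Psmd6 differed by 0.07, also without overlap, and Psmd3, Psmd8 and Psmd13 lay between -0.00 and 0.02. The second brightest Psmd13 probe set differed by 0.04. Dimmer ones, at levels of 6.58 and 5.53, differed by -0.36 and -0.09.

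Among the assembly factors, Psmd5, a chaperone that holds ATPases of the base before they join the 19S particle, showed the largest difference of all 50 genes. It measured 9.45, 9.37 and 9.37 in control and 9.66, 9.79 and 9.77 in caNrf2 skin. The lowest caNrf2 array exceeded the highest control by more than the range within either group. The difference was 0.35 ± 0.07 (SE), 1.27-fold, with a 95% interval of 1.14 to 1.42, and missed the threshold (adjusted p = 0.126). With an intensity trend in the variance it passed (adjusted p = 0.0453), as it did with array weights (adjusted p = 0.0439); over the alternatives tried, adjusted p ran up to 0.543. Psmd5 has 1 probe set, so no second one can be set beside it. Its nearest measured neighbours on chromosome 2 differed by 0.10 (Fbxw2) and, on the other side, by -0.28 (Cutal), neither past the threshold. Cutal was dim, at a mean level of 4.76.

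Pomp, which matures the core and is a known target of Nrf2, measured 11.17, 11.06 and 11.13 in control and 11.23, 11.25 and 11.26 in caNrf2 skin. The groups did not overlap, and the caNrf2 arrays lay close together. The difference was 0.13 ± 0.07 (SE), 1.09-fold, with a 95% interval of 0.983 to 1.21 (adjusted p = 0.690). The core chaperones Psmg1, Psmg2, Psmg3 and Psmg4 differed by 0.08, 0.08, 0.06 and 0.00, and in Psmg3 and Psmg4 caNrf2 1 lay below all controls and caNrf2 2 and 3 above them. Psmd9 measured 8.88, 8.90 and 8.79 in control and 8.67, 8.92 and 8.81 in caNrf2 skin, a difference of -0.06 with overlap, and the base chaperone gankyrin, Psmd10, differed by 0.00.

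Activators open the gate of the core without ubiquitin. Psme3, the nuclear PA28 gamma, measured 9.33, 9.02 and 9.14 in control and 9.32, 9.39 and 9.43 in caNrf2 skin. Control 1 lay as high as caNrf2 1, and the remaining controls lay below. The difference was 0.22 ± 0.09 (adjusted p = 0.579), and a second probe set differed by 0.16. Psme4, the PA200 activator, differed by 0.11 and Psmf1, the proteasome-binding protein PI31, by 0.02.

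The alternative core subunits Psma8, of male germ cells, and Psmb11, of thymic cortical epithelium, stood at mean levels of 3.73 and 4.06. For comparison, 3 Y-linked genes, which female mice lack, stood at 3.02 to 3.74. Psma8 measured 3.95, 3.62 and 3.56 in control and 3.48, 3.92 and 3.89 in caNrf2 skin, without order between the groups, and no difference can be read from it. Of 4 testis markers none was called (median -0.03). Psmc3ip measured 8.51, 8.37 and 8.60 in control and 8.36, 8.59 and 8.46 in caNrf2 skin, which overlap, and Psme3ip1 differed by 0.02.

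The shift of the proteasome genes was not alike on the 3 caNrf2 arrays. Relative to the control mean of each gene, the 50 genes had a median of 0.01 on caNrf2 array 1, 0.09 on array 2 and 0.10 on array 3, with 26, 45 and 38 genes above the control mean. The control arrays themselves ranged from -0.03 on array 2, with 13 genes above the mean, to 0.03 on array 1, with 36. The 17 genes of the regulatory particle (ATPases, other base subunits and lid) had medians of 0.12, 0.09 and 0.14 on caNrf2 arrays 1, 2 and 3. In the same order the assembly factors had medians of -0.02, 0.11 and 0.15, and the immunoproteasome genes -0.15, 0.09 and -0.17.

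**Figure D3:**
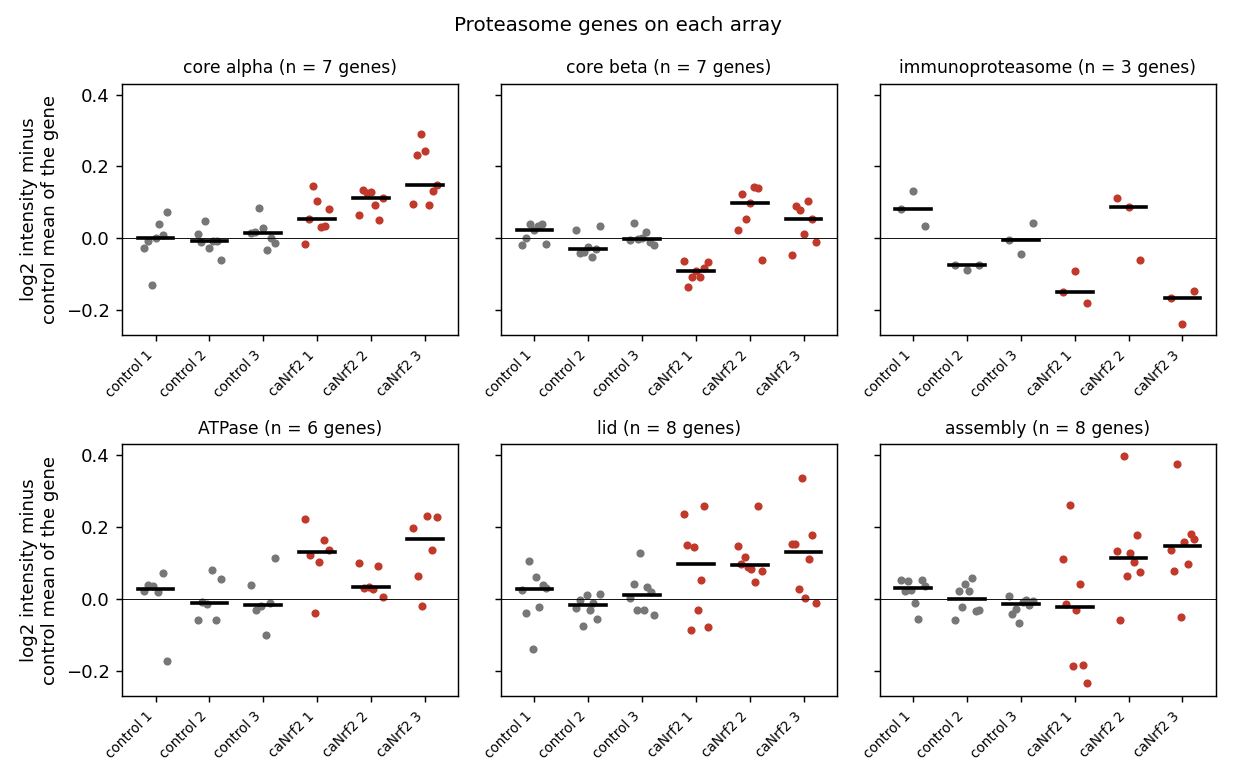
Log2 intensity minus the control mean of the gene (y axis) on each array (x axis), for 6 groups of proteasome genes; points are genes and bars medians. The beta genes lie below 0 on caNrf2 array 1 and mostly above on arrays 2 and 3, while the alpha genes have medians above 0 on all 3 caNrf2 arrays.

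Most proteasome genes are bright on these arrays, and bright genes as a whole leaned upward. Of the 50 genes 34 had a mean log2 intensity of at least 10, with a median difference of 0.07 and 29 above 0. All 2541 genes at that level had a median of 0.02, and 60.6% lay above 0. Among the 34, 12 were higher without overlap, against 9.76% of all genes at that level, and 5 were higher at an unadjusted p under 0.05, against 3.9%. The lean lay on the arrays with high upper quartiles: relative to the control mean all genes of that level had medians of -0.00 on caNrf2 array 1 and 0.04 on both others. A further quantile normalisation of the log2 values moved the median of the 50 from 0.06 to 0.03. The median of all genes moved down as well, from -0.007 to -0.019. It left 29 of the 50 above 0, and the share of all genes above 0 is not given here for that setting. After it 10 of the 50 were higher without overlap, against 4.94% of all genes. The part of these array properties in the proteasome values was not tested further.

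**Figure D4:**
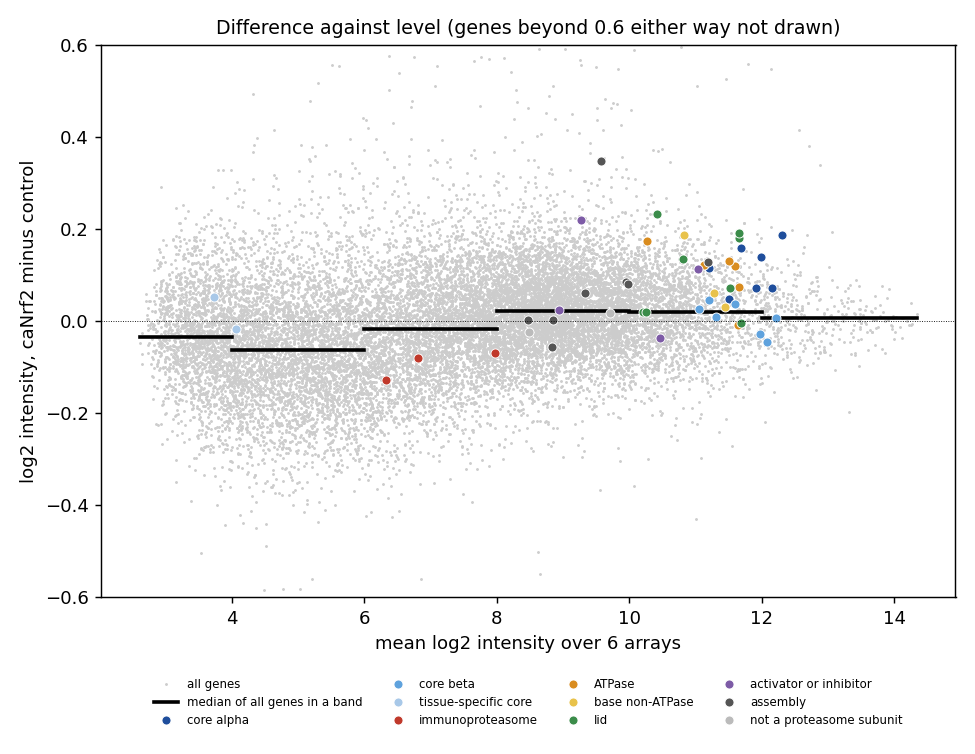
Difference in log2 intensity, caNrf2 minus control (y axis), against mean log2 intensity over the 6 arrays (x axis) for all genes (grey) and the 50 proteasome genes (coloured by role), with 54 genes beyond the axis not drawn. Black bars are medians of all genes in bands of level, which run from -0.06 in the dim band of 4 to 6 to 0.02 between 8 and 12, where most proteasome genes lie.

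The genes had 104 probe sets in all, none of which was called when all probe sets were tested (smallest adjusted p = 0.175). Of 54 probe sets other than those used, 19 had a level of at least 8, and 2 of these had the opposite sign to the one used. Of the 35 dimmer ones 16 had the opposite sign.

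Partners of the proteasome outside the symbol rule were alike small in their differences. Of 14 measured partners, ubiquitin shuttles and deubiquitinases, 13 lay above 0 and none was called, with a median of 0.06. The lid protein Sem1 was the one partner below 0, at -0.04, the deubiquitinases Usp14 and Uchl5 by 0.15 and 0.14, and the quality-control protein Ecpas by 0.19. Zfand5, which stimulates the 26S proteasome, differed by 0.21 ± 0.07 (adjusted p = 0.489), without overlap. Of 9 genes of the p97 segregase, which hands substrates to the proteasome, 8 lay above 0 (median 0.07) and none was called; Vcp, the ATPase itself, differed by 0.15 and its cofactor Ubxn4 by 0.22. Of a list of 6 genes of ubiquitin and its activating enzymes, 1 had a probe set with a single symbol, the activating enzyme Uba6, which differed by 0.07.

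Of 11 measured regulators of proteasome genes, Mafg alone passed the threshold. It encodes a small Maf partner of Nrf1 and Nrf2 and rose 1.56-fold (0.65 ± 0.08 SE, adjusted p = 0.00428). Nfe2l1, which encodes Nrf1, measured 9.47, 9.42 and 9.52 in control and 9.48, 9.48 and 9.54 in caNrf2 skin, overlapping, with a difference of 0.03 ± 0.07 (SE; adjusted p = 0.949). The Nfe2l2 probe set, with its values given above, differed by 0.41 (adjusted p = 0.0539).

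In the other arm of protein disposal, 9 selective autophagy genes held no call and a median of 0.02. The receptor Sqstm1, a known target of Nrf2, differed by 0.20 ± 0.09 without overlap (adjusted p = 0.593) and Gabarapl1 by 0.47 ± 0.09 (adjusted p = 0.0940). The 10 cytosolic chaperones had a median of 0.03 and no call, with Dnajb1 at 0.12 and Hspa1a at -0.10.

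No marker of the cell types of skin was called. The median was 0.05 for 6 basal keratinocyte genes and 0.01 for 5 suprabasal genes, all of them above 0, -0.00 for 6 fibroblast genes, 2 above 0, and 0.02 for 6 skeletal muscle genes, 4 above 0. None of 5 adipocyte and 6 endothelial genes lay above 0, with medians of -0.09 for each, larger in size than the median of the proteasome genes. Cdh5, the cadherin of endothelium, differed by -0.17 without overlap (adjusted p = 0.615). Summed intensities of the basal keratinocyte genes were 35140 to 36375 units on the control arrays and 35855 to 37835 on the caNrf2 arrays. Their part in the proteasome values was not tested.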

How the data were processed

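Total RNA of 6 skins (2 µg each) was labelled for Affymetrix arrays, per the labels' protocols. The deposited table holds 1 linear intensity per probe set and array, made by the authors with RMA per the submitters' processing notes; the software version is not given in the sources used here. Columns of other series numbered 0. Scanner files were not used here.

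Intensities were converted to log2. The table lists 45101 probe sets, including 64 array controls that were dropped. Of the remaining 45037, 34945 had 1 gene symbol, and for each of 18193 genes the brightest was used. The test was that of limma (version 3.58.1, lmFit and eBayes, no block; R version 4.3.3), adjusted over all genes by Benjamini-Hochberg at 0.05. The fit was tested on simulated data. Values on every array are given for Pomp, Psma1, Psmb5 to Psmb10, for the member of each class with the smallest p or largest difference, and for the 4 smallest p in each direction; Psma2, Psma4, Psmc5, Psmd12 and Psmd14, all higher in caNrf2 skin, were added after their values were seen. Other members appear by class. Members and lists were chosen with earlier results of these data known. Replicate numbers were not used as pairs: deviations of same-numbered arrays correlated at -0.20, -0.03 and 0.04 across genes. Differently numbered arrays were not set beside them, so these values cannot show whether the samples were paired.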

Additional observations from a re-analysis of the deposited data

How the results depend on the processing

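No proteasome gene was called with cyclic loess (chosen after the data were seen), robust eBayes, the mean of all probe sets, low genes left out, a second quantile normalisation, centred medians or a replicate block, nor without any single array; 1 was called, Psmd5, with an intensity trend and 1, again Psmd5, with array weights. Of all 18193 genes the intensity trend called 91 and array weights 94, against 68 in the main fit. The 7 genes higher at an unadjusted p under 0.05 became 4 with the replicate block, 2 with quantile normalisation, 13 with the intensity trend, 3 with cyclic loess, and 2 to 8 when single arrays were left out (2 without control 2, 3 without caNrf2 3, 4 without control 1). The share of all genes at that p is not given here for these settings. Whether the replicate numbers behind the block pair the samples was not settled, and the block changed no call of a proteasome gene. The 13 genes higher without overlap, against 6.23% of all genes, became 24 without caNrf2 array 1, where 16.5% of all genes did so. Without any other single array they were 14 to 19, and the share of all genes was also larger, at 9.53% to 12.1%. The lid median of 0.10 was 0.069 with quantile normalisation, 0.074 with the mean of all probe sets and 0.079 with cyclic loess. With the mean of all probe sets the ATPase median was 0.057 and that of the other base subunits -0.0024. The activator and inhibitor median was 0.020 to 0.10 without single arrays, the lowest without caNrf2 array 1. Signs turned for values near 0: Psmb6 (-0.0020) with quantile normalisation and Psmc3ip (0.029) with the mean of all probe sets. Without single arrays Psmb5 ran from -0.0025 to 0.12, Psmb6 from -0.016 to 0.10, Psma8 from -0.028 to 0.19, Psmc3ip from -0.084 to 0.029, Psmd9 from -0.12 to 0.0069, and Psmb10 minus Psmb7 from -0.12 to 0.044. Psmb8 ran from -0.17 to -0.0032 and Psmb10 from -0.16 to -0.020 without single arrays. The beta ring median, 0.01, was -0.01 with quantile normalisation and -0.02 to 0.07 without single arrays. Precision is limited by the 3 arrays of each group.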
